A study of Vanessa cardui and Junonia coenia with 16 samples.

Results

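The 150 transcripts described here were listed at 10 FPKM or more in wild-type forewings of the painted lady butterfly, Vanessa cardui. They were low or listed at 0 in every wing labelled as an optix knockout with large defects at the melanin stage. They were selected on their measured values, as rows of the transcriptome assembly with at least 10 FPKM in both wild-type forewing libraries and a gap of at least 1 on the log2(FPKM + 1) scale. FPKM is a fragment count divided by the length of the row and by the size of its library. The gap is the lower wild-type value minus the highest of the 4 knockout values, so the loss itself is what chose the members, and no test of it is evidence for it. Of 74995 V. cardui rows (257194 in the series, with the common buckeye Junonia coenia), 5600 reached 10 FPKM in both wild types and 520 passed the rule. The 150 largest gaps were taken, which ends at a gap of 1.80 on both sides of the limit. The last member held 15.4 and 18.1 FPKM in wild type with a highest knockout value of 3.69 FPKM. The first row outside held 76.3 and 137 FPKM in wild type with a highest knockout value of 21.2 FPKM.

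The libraries that chose the members were all labelled as melanin stage: 2 wild-type forewings, 2 forewings and 2 hindwings of optix knockouts with large defects. A single mosaic knockout individual, labelled as ommochrome stage, gave 1 forewing with small defects and 1 with large defects, and these took no part in the choice. The labels give animals of V. cardui from a commercial supplier reared on artificial diet, describe replicates as biological, and give neither sex nor the day of pupal life. The individual with the paired wings is called mosaic in the labels, meaning that edited and unedited cells lie side by side, and the share of edited cells was not analysed here. No wild-type hindwing was analysed here. The knockout hindwings were set against wild-type forewings in the rule, and wing and genotype cannot be told apart for them among the libraries used here.

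Butterfly wings are covered with scales, each the product of a single cell that fills with pigment and hardens late in pupal life. Ommochromes, made from tryptophan, give orange to red scales, and melanins, made from tyrosine, give brown to black ones. The gene optix encodes a homeodomain transcription factor that is expressed in developing scale cells of several nymphalid butterflies, where it is known for promoting ommochrome colours and for acting on scale structure. Transcripts that fall when it is lost can belong to pigment synthesis, to the build of the scale or to any step downstream. The row identifiers of the assembly carry no gene names, and 0 of the 150 matched the reference gene table of the species, so no role is given to any member, optix itself was not analysed here, and no marker of a tissue or cell type could be checked. In whole wings, fewer cells of a type and less RNA per cell cannot be told apart.

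Depth differed between the libraries. Relative depth was taken from what a single read was worth in long rows with very low values. It was 3.09 and 1.98 for the wild types, 1.0 and 1.96 for knockout forewings, and 1.95 and 1.86 for knockout hindwings. The small-defect mosaic wing had 2.28 and the large-defect wing 1.92. The shallowest library, knockout forewing 1, had the coarsest values. A single read there was worth 10.1 FPKM in short rows and 0.772 FPKM in long rows, against 2.46 and 0.25 FPKM in wild-type forewing 1. In short rows a read was worth 6.71 FPKM in wild-type forewing 2. It was worth 4.35, 4.46 and 4.11 FPKM in knockout forewing 2, hindwing 1 and hindwing 2. For such rows wild-type forewing 2 was shallower than these knockouts, and a value of 10 FPKM there stood for few reads. The 5450 rows at 10 FPKM or more in both wild types that were no members had medians of 19.8 to 27.1 FPKM in all 8 libraries. Below, these are called the other rows abundant in wild type, which means no more than that minimum.

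The median member stood at 19.8 and 29.6 FPKM in the wild types. Among the knockouts the median was 0.912 and 2.35 FPKM for the forewings, then 1.14 and 0.141 FPKM for the hindwings. The small-defect mosaic wing, which the rule did not use, had a median of 5.89 FPKM and the large-defect wing 2.25 FPKM. The members together held 3.74% and 2.64% of all FPKM in wild type and 0.0409% to 0.0729% in the knockouts. The small-defect wing held 0.289% and the large-defect wing 0.0601%. A single row made up most of the wild-type share, and without it the members held 0.857% and 0.928%.

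**Figure D1:**
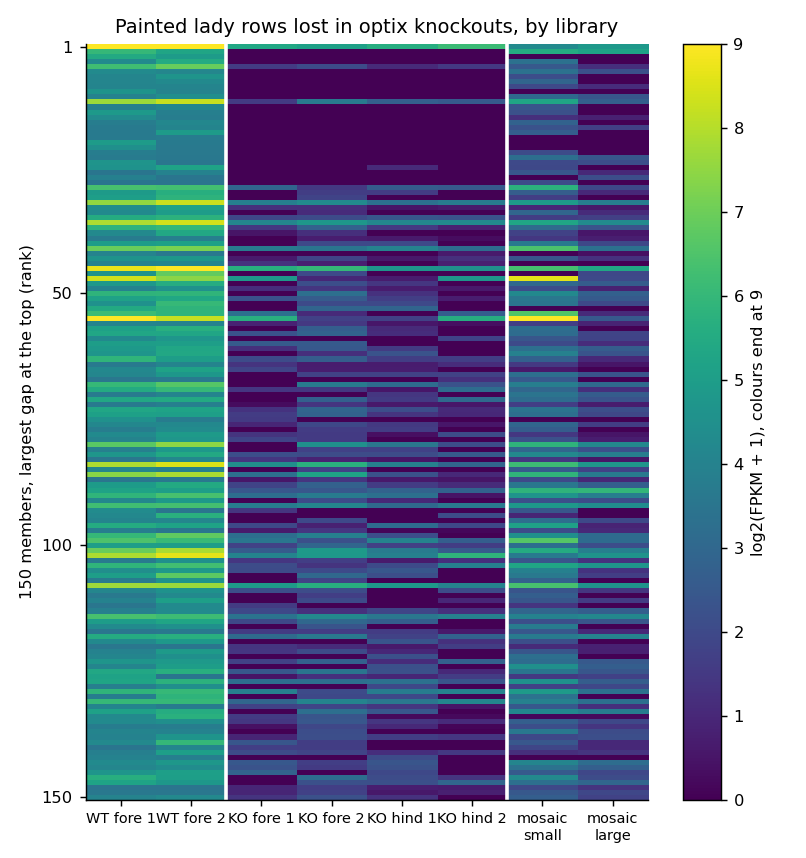
Level of each of the 150 members (rows, largest gap at the top) in the 8 V. cardui libraries (columns), as colour on the log2(FPKM + 1) scale, with all values above 9 in the brightest colour. The wild-type columns are bright by choice, the 4 knockout columns dark by choice, and the small-defect mosaic column, with a median of 5.89 FPKM, is brighter than the large-defect column at 2.25 FPKM.

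The member with the largest gap was c16935_g1. Its FPKM was 22926 and 15566 for the wild types, 40.1 and 33.4 for the knockout forewings, 48.1 and 70.0 for the knockout hindwings, 19.0 for the small-defect and 27.0 for the large-defect mosaic wing. It took 2.88% and 1.71% of all FPKM in the wild types, and both mosaic wings lay below all 4 knockouts. Its gap of 7.78 (log2) stands apart from the next, 5.30, and the median gap of 2.25. The row with the next gap, c27787_g2, had 62.9 and 38.4 FPKM in the wild types, 0 in each of the 4 knockouts, and in the mosaic wings 45.8 FPKM with small defects and 35.6 FPKM with large defects. Its small-defect value lay between the wild types and its large-defect value just below them.

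Members were mostly of modest abundance. The lower wild-type value was under 20 FPKM in 82 members and at least 100 FPKM in 14. In these 14 abundant members the highest knockout value ranged from 12.0 to 70.0 FPKM, and 13 of the 14 were above 0 in all 8 libraries. After c16935_g1, the most abundant was c26741_g4, with FPKM of 419 and 738 for the wild types, 48.6 and 62.5 for the knockout forewings, 23.9 and 22.0 for the knockout hindwings, 80.7 for the small-defect and 40.6 for the large-defect mosaic wing. For this row the small-defect wing lay just above the knockout range and the large-defect wing within it. The median absolute difference between the wild-type replicates was 0.46 over the members against 0.31 (log2) over other rows of at least 10 FPKM. More than 2-fold between them differed 16 of the 150 members, a share close to the 9.34% of those other rows. Neither comparison was tested.

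**Figure D2:**
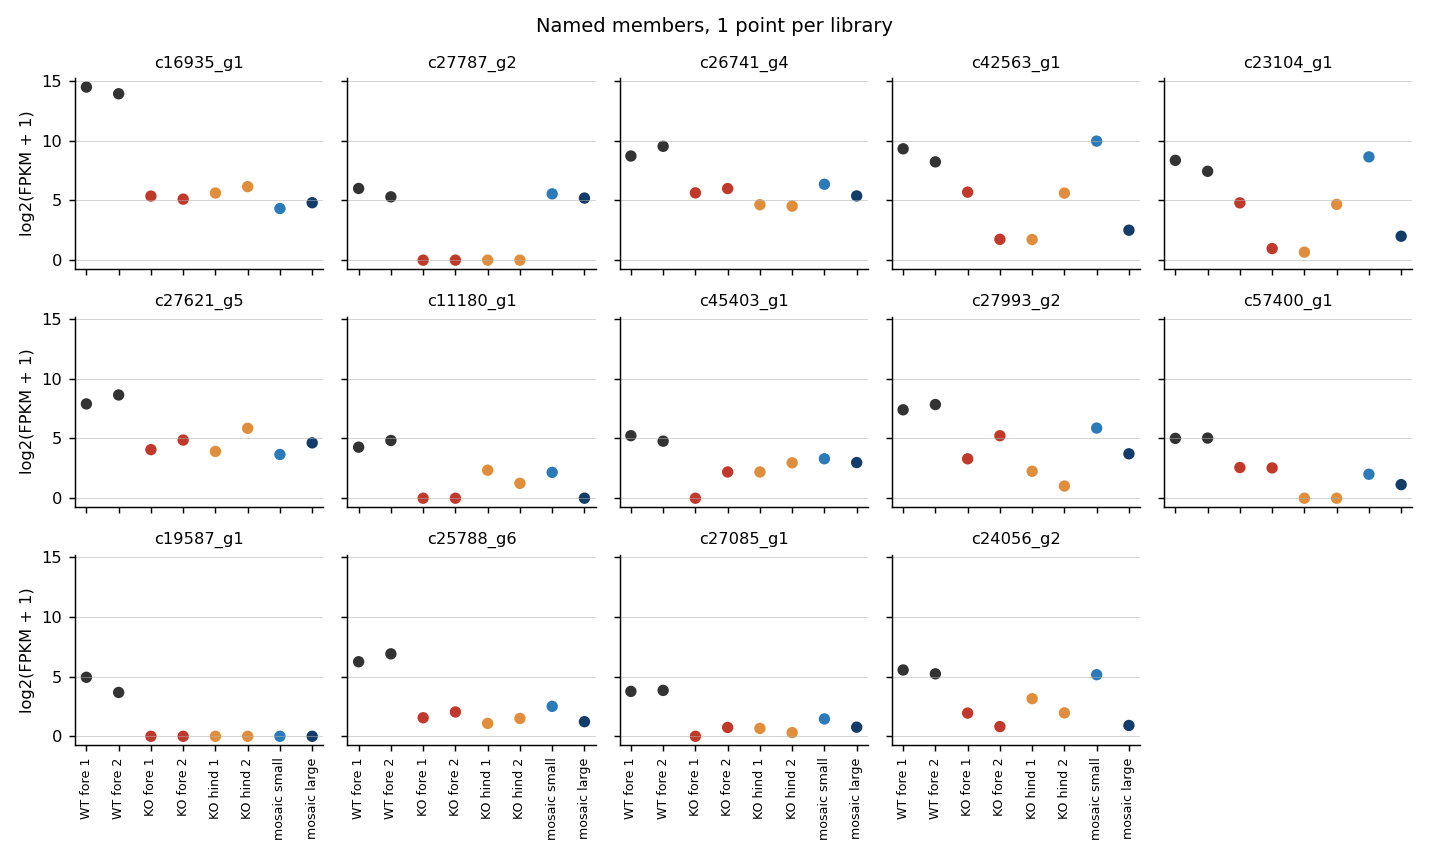
The 14 members chosen by the naming rule, 1 panel each, with the level in every library on the log2(FPKM + 1) scale; points are single libraries (black wild type, red knockout forewing, orange knockout hindwing, light and dark blue the small-defect and large-defect mosaic wings). In c42563_g1 and c23104_g1 the small-defect wing lies above both wild types, while in c16935_g1 both mosaic wings lie below all 4 knockouts.

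What was left in the knockouts varied. In 24 members all 4 knockout libraries were listed at 0, in 65 members 1 to 3 of them were, and in 61 members none was. Zeros were most frequent in knockout hindwing 2 (73 members) and in knockout forewing 1 (66 members), against 49 in knockout hindwing 1 and 39 in knockout forewing 2. Among the 5450 other rows abundant in wild type the order was the same, with 191, 183, 79 and 23 rows at 0, so it is not particular to the members. Knockout hindwing 2 and knockout hindwing 1 had relative depths of 1.86 and 1.95 in long rows, and the part of depth in these counts was not tested. Among the 126 members with a knockout value above 0, knockout forewing 2 held the highest in 71 and each other knockout library in 16 to 22. Over the 5450 other rows this was not counted, but knockout forewing 2 had the highest median of the 4 knockouts there too, 25.7 FPKM against 19.8 to 24.3 FPKM. Leaving knockout forewing 2 out of the rule raised the number of passing rows from 520 to 986, and only 82 of the 150 largest gaps were then members. Without wild-type forewing 1 or 2 it was 56 and 86 of the 150, and without any other knockout library 129 to 137.

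For low rows the number of reads behind a value limits what a 0 can show. Whole reads were looked for in the 98 members above 0 in at least 6 libraries, and in 17 of them every value could be written as a whole number of reads, within a tolerance of 0.1 read and with at most 30 reads per library. Counted as the fewest reads that fit, these 17 had 21 to 52 in the wild types together and up to 8 in the 4 knockouts together. True numbers may be multiples of these. Members listed at 0 in several libraries, among them all 24 at 0 in the 4 knockouts, leave too few values for reads to be recovered. No number of reads and no limit behind their zeros is given, and the counts of the 17 do not describe them. A 0 in a file of normalized values can also be a failed estimate.

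The mosaic individual gives measurements that the choice of members did not touch. With 1 library per wing there is no replicate check and no test, and large defects are read against small ones in the same animal. The large-defect wing was lower in 125 of 150 members, higher in 16 and equal in 9, all of them listed at 0 in both wings. The median difference, large minus small, was -0.98 on the log2(FPKM + 1) scale. It was at least 2-fold lower in 73 members and at least 2-fold higher in 2. Over the 19184 rows that averaged 1 FPKM or more in the 6 melanin-stage libraries, 10.3% were 2-fold lower and 4.43% 2-fold higher, and the median was -0.07. Over the 5450 other rows abundant in wild type the shares were 6.97% and 1.14%, with a median of -0.08. The members' share of 48.7% lay above both backgrounds in the lower direction, and 1.33% in the higher direction lay between 1.14% and 4.43%. Counted at any size, the large-defect wing was lower in 83.3% of members, 56.0% of the 19184 tested rows and 59.4% of the 5450 other rows.

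Other rows that passed the rule were also mostly lower in the large-defect wing. Among the 370 rows that passed the rule beyond the 150 taken, 86.2% were lower in the large-defect wing, against 83.3% of members, 140 were 2-fold lower (37.8%) and the median was -0.79. Whether members and these rows differ was not tested. Within the members, the median was -0.86 for the 24 listed at 0 in all 4 knockouts, 11 of them 2-fold lower, and -0.99 for the other 126, 62 of them 2-fold lower. Among the 5080 rows at 10 FPKM in wild type that did not pass the rule, 4.72% were 2-fold lower and the median was -0.05. In the 53 members with at least 30 FPKM in both wild types the median was -1.31, and 32 of them were 2-fold lower and 0 were 2-fold higher. In the 14 members with at least 100 FPKM it was -1.65, and 10 were 2-fold lower. In long rows the small-defect library was the deeper one by 1.19 times, and the part of depth in the difference was not tested.

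**Figure D3:**
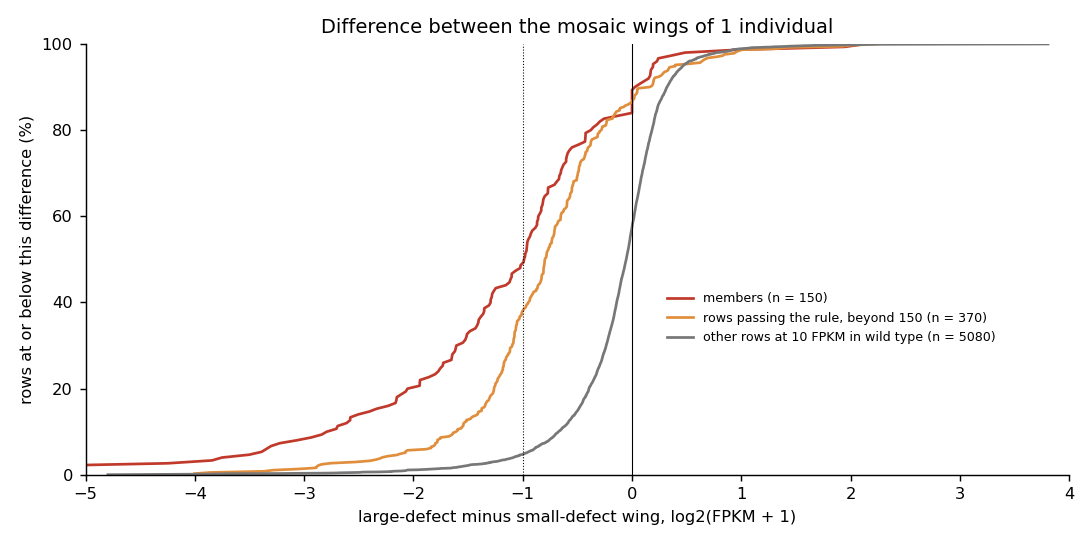
Cumulative share of rows (y axis, percent) by the difference between the mosaic wings of the single individual, large-defect minus small-defect (x axis, log2(FPKM + 1)); the dotted line marks 2-fold lower. The curve of the 150 members (median -0.98) and that of the 370 further rows passing the rule (median -0.79) lie to the left of the 5080 other rows abundant in wild type (median -0.05).

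Set against the melanin-stage wings, the large-defect mosaic wing lay in or below the knockout range for most members and the small-defect wing between the genotypes. In the large-defect wing 118 members were at or below the highest knockout value, 31 lay within the gap and 1 was at or above the lower wild type. In the small-defect wing 34 were at or below the highest knockout, 109 lay within the gap and 7 were at or above the lower wild type. The combination of a small-defect value within the gap and a large-defect value at knockout level was the most frequent, with 82 members, and 32 members were at knockout level in both wings. The small-defect wing was above both the large-defect wing and all 4 knockouts in 113 members. The 370 rows beyond the limit were placed much alike, with 292 at or below the highest knockout in the large-defect wing and 258 within the gap in the small-defect wing, so the placement is not particular to the members. A wild-type wing of the ommochrome stage is not analysed here, so where both mosaic wings were below wild type, stage and genotype cannot be told apart.

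In 4 members the small-defect wing was at or above the lower wild type and the large-defect wing at knockout level. The row c42563_g1 had 997 FPKM with small defects, 4.68 FPKM with large defects, and 637 and 298 FPKM in the wild types. Its knockout values were uneven, with 50.7 and 2.35 FPKM for the forewings, then 2.31 and 47.9 FPKM for the hindwings. For c23104_g1 the small-defect wing had 398 FPKM, the large-defect wing 3.01 FPKM, the wild types 326 and 172 FPKM, the knockout forewings 26.8 and 0.958 FPKM, and the knockout hindwings 0.59 and 24.4 FPKM. The ratio of c42563_g1 to c23104_g1 stayed between 1.55 and 3.91 in all 8 libraries while both rows ranged over more than 2 orders of magnitude. Their pattern of high knockout forewing 1 and hindwing 2 over low knockout forewing 2 and hindwing 1, by at least 2 on the log2 scale, was shared by no other member and, the pair included, was found in 32 of the 19184 tested rows. The mirror pattern, high in knockout forewing 2 and hindwing 1, was found in 4 members, and its share over the tested rows was not counted. In 2 of them, c37627_g1 and c50084_g1, whole reads were recovered. As the fewest that fit, the values in these libraries came to 1 and 1 reads for c37627_g1 and to 2 and 1 for c50084_g1. The other knockouts had 0.

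The other members of that kind were named after their values were seen. For c29607_g1 the small-defect wing had 93.3 FPKM, the large-defect wing 1.08 FPKM, the wild types 70.7 and 56.5 FPKM, and the knockouts 8.90 and 1.09 FPKM for the forewings, then 0 and 5.44 FPKM for the hindwings. Knockout forewing 1 and hindwing 2 were the higher ones here too, by less than 2 on the log2 scale. For c22296_g2 the small-defect wing had 98.2 FPKM, the large-defect wing 7.76 FPKM, the wild types 88.1 and 66.2 FPKM, and the highest knockout 15.1 FPKM. For all 4 of these rows the sum over the assembly component kept a gap of at least 1. The 2 members that went furthest the other way among those with at least 10 FPKM in a mosaic wing were c16935_g1, given above, and c27621_g5, whose small-defect wing had 11.6 FPKM and whose large-defect wing had 23.8 FPKM. The large-defect value of c27621_g5 still lay within its knockout range of 14.1 to 56.7 FPKM, and its wild types had 237 and 398 FPKM. Summed over its component the direction turned, with a difference of -0.21 (log2). The only member with the large-defect wing at or above the lower wild type, c28337_g5, also named after its values were seen, had 56.4 FPKM with small defects, 60.9 FPKM with large defects, 35.1 and 31.7 FPKM in the wild types, and a highest knockout value of 6.36 FPKM. Its component sum had a gap of -0.34, so the groups overlapped there.

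Whether the residue differed between knockout hindwings and knockout forewings was tested with limma across all 19184 rows, a contrast that the rule does not use. All 150 members passed the filter on low values, which their wild-type levels alone satisfied. Of these, 24 were listed at 0 in all 4 knockout libraries and could not be called. None of the other 126 was called at an adjusted p of 0.05, and neither was any other row (0% higher and 0% lower). The smallest adjusted p among the members was 0.241 (limma). At an unadjusted p under 0.05, 11 members were lower and 1 was higher in the hindwing, against backgrounds of 4.24% and 2.2% of tested rows. The hindwing values lay below the forewing values without overlap in 37 members and above in 6, against 21.4% and 14.4% of tested rows. The median log2 change was -0.29 over the members and -0.10 over all tested rows, with 94 members lower, 32 higher and 24 equal because all 4 libraries were listed at 0. The members' share of 62.7% lower was close to the 57.7% of all tested rows and the 61.7% of the other rows abundant in wild type, so it is not a result about the members. Median-of-ratios scaling moved the median of all rows to -0.00 and that of the members to -0.20, with 81 lower and 45 higher. The members' median was 0 without knockout forewing 2, with 62 lower and 55 higher, and also 0 without knockout hindwing 2, with 74 lower and 48 higher. The median of all tested rows was then 0 and -0.0044.

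The members that differed most between the knockout wings without overlap were not called. For c27993_g2 the knockout forewings had 8.84 and 36.5 FPKM, the hindwings 3.77 and 1.03 FPKM, without a call (log2 change -2.63, SE 0.74, adjusted p = 0.73, limma). For c57400_g1 the forewings had 4.94 and 4.80 FPKM, and both hindwings were listed at 0 (log2 change -2.55, SE 0.26, adjusted p = 0.241, limma). It was the steadiest of the named members in wild type, with 31.2 and 31.7 FPKM. In the other direction c11180_g1 was listed at 0 for both knockout forewings and had hindwing values of 4.09 and 1.37 FPKM, also without a call (log2 change 1.80, SE 0.47, adjusted p = 0.666, limma). For c45403_g1 the forewings had 0 and 3.59 FPKM, the hindwings 3.59 and 6.78 FPKM, and these values came to 1 read against 1 and 2 reads (log2 change 1.48, SE 0.77, adjusted p = 0.774, limma).

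An assembly can divide the transcripts of a gene over several rows, and rows whose identifiers share a c number belong to the same component. Such rows can also be different genes, which the identifiers do not settle, so a component sum need not stand for a gene. The members came from 142 components, of which 7 held more than 1 member. In 82 members the row was the only one of its component above 0. Of the 68 members in components of at least 2 rows, 33 kept a gap of at least 1 when the FPKM of the component were summed, 22 kept a smaller gap and 13 lost it. Over these components, 96 other rows were tested that were no members. In 50 of them all 4 knockouts lay below both wild types, in 7 above, and in 39 the groups overlapped. Over all tested rows, 27.4% had all 4 knockouts below both wild types, which every member has by rule. Over tested rows that were no members, 16.6% had all 4 knockouts above both wild types, against 7.29% of the 96. Another row higher in the knockouts by a gap of at least 1 was found beside 2 members, and such rows made up 2.08% of the 96 and 1.84% of the tested rows that were no members.

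Among components of at least 2 rows above 0, the sums with the largest gap were those of c19587_g1 and c25788_g6. The component of c19587_g1 summed to 52.2 and 23.3 FPKM in wild type and to 0 in the other 6 libraries, the row itself holding 29.6 and 11.7 FPKM. The component of c25788_g6 summed to 79.5 and 122 FPKM in wild type and to at most 6.56 FPKM in the knockouts, and the row held nearly all of it, with 74.5 and 118 FPKM in wild type and 1.11 to 3.10 FPKM in the knockouts. At the other end, c27085_g1 had 12.5 and 13.3 FPKM in the wild types and a highest knockout value of 0.667 FPKM, while its component summed to 73.2 and 25.8 FPKM in wild type and to 42.7 to 349 FPKM in the knockouts. For c24056_g2, with 45.8 and 36.5 FPKM in the wild types and a highest knockout value of 7.86 FPKM, the component summed to 77.4 and 52.1 FPKM in wild type and to 8.93 to 115 FPKM in the knockouts. For c27787_g2 the component sum was 224 and 238 FPKM in wild type and 49.9 to 118 FPKM in the knockouts, a gap of 0.92. For the abundant c26741_g4 it was 1287 and 1859 FPKM in wild type and 532 to 689 FPKM in the knockouts, a gap of 0.90. In these 4 the gap of the component was smaller than that of the row.

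**Figure D4:**
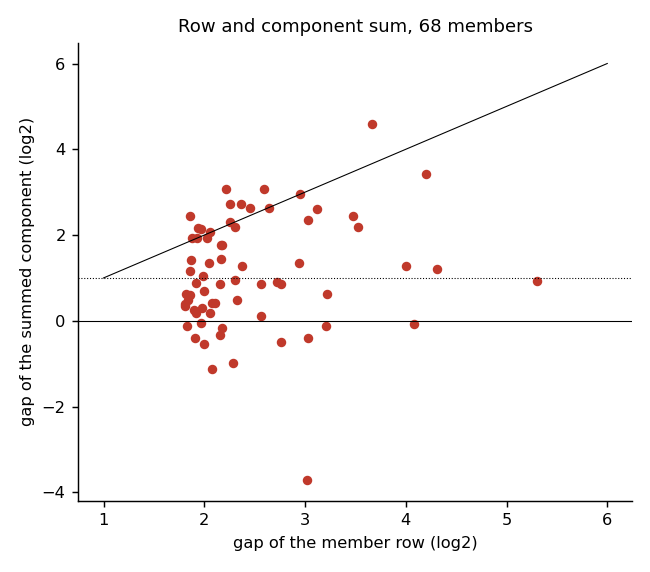
Gap of the FPKM sum of the assembly component (y axis, log2) against the gap of the member row itself (x axis, log2) for the 68 members whose component has at least 2 rows above 0; the diagonal marks equal gaps, the dotted line a gap of 1 and the lower line a gap of 0. There are 33 points at or above a gap of 1 and 13 at or below 0, the lowest being c27085_g1 at -3.71.

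The knockout forewing contrast was part of the rule, so its calls restate the choice of members and nothing is read from them. At an adjusted p of 0.05 (limma), 54 of the tested rows were called lower in the knockout forewings (0.281%), of which 35 were members. The number of members called changed from 0 to 63 with the settings of the fit.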

How the data were processed

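RNA of dissected V. cardui wings was sequenced as poly(A) libraries, per the labels' protocols. The authors deposited FPKM values per assembly row and library; Bowtie2 was used, per the submitters' processing notes. For its version, the quantification and assembly programs, and any further scaling, nothing is stated in those sources. The table has 2 further columns that match no labelled sample, which were not used. Row identifiers were looked up in 15000 reference genes and 0 matched.

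The members, the component lists and the tests were chosen with earlier results of these data known. Differences are on the log2(FPKM + 1) scale, which understates changes of low rows. Tests used limma 3.58.1 in R 4.3.3, with a group-means model over the 6 melanin-stage libraries and variance moderated along the mean. They covered the 19184 rows averaging 1 FPKM or more, with two-sided p-values and Benjamini-Hochberg adjustment over all of them. The knockout wing test was also run on simulated data, with changes placed only in rows of higher level in the knockout forewings. The members' median there was 0.912 and 2.35 FPKM, so that run does not show whether changes in such low rows would be called. Rows were named by rule: the 2 members with the largest gap, the 2 most abundant in wild type, and the 2 most extreme per direction for the mosaic pair (at 10 FPKM in a wing), for the knockout wings (without overlap) and for component gaps (components of at least 2 rows above 0).

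Relative depth and whole reads were added after the data were seen. Exact value pairs shared by at least 3 rows in 2 libraries form ridges, and the main ridge gives the ratio of 1 read in each library along transcript length. A member's reads are the fewest whole numbers that give all its values, so true numbers may be multiples. Members above 0 in fewer than 6 libraries got none, because simulated rows with many reads then often also came out as few whole reads. Replicate numbers were not used to pair the libraries in the main fit. Whether a knockout forewing and a knockout hindwing came from the same animal is not stated, and that fit treated them as independent.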

Additional observations from a re-analysis of the deposited data

How the results depend on the processing

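In the knockout hindwing against forewing comparison, 0 members were called under every alternative run (limma, 8 to 31 members at an unadjusted p under 0.05). The 35 members called in the knockout forewing comparison became 1 with a pseudocount of 0.1, without a filter or with a minimum average of 5 FPKM, 0 with the replicate block or a fit of only the groups compared (limma, 150 at an unadjusted p under 0.05 in both), and 63 without the trend; leaving out 1 library gave 0 to 36, with 0 for each of the 4 knockout libraries (limma, 135 to 150 at an unadjusted p under 0.05). Correlations of replicate deviations by replicate number were -0.10 to 0.02, and wings of the same animal under different numbers were not looked for. In place of the 520 rows passing the rule, 1821 passed with no minimum in wild type, 230 with at least 20 FPKM, and 542 to 1310 with 1 library left out (1310 and 815 without wild-type forewing 1 and 2, 986 without knockout forewing 2). The counts with another minimum follow from admitting more or fewer rows; for the limma calls the cause was not tested. The mosaic median of -0.98 was -1.39 with a pseudocount of 0.1, where 92 members were 2-fold lower and 4 were 2-fold higher, and -0.74 to -0.89 with scaling or component sums. With component sums 14 members in the small-defect wing and 7 in the large-defect wing were at or above the lower wild type, and with quantile normalization 2 in the latter. The difference of c27621_g5 turned to -0.21 in its component sum. Library depth limits rows listed at 0, and where 1 library stands for a group it is assumed to vary like the others.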
